A study of Mus musculus with 6 samples.

Results

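The genes described here are the tumour necrosis factor (TNF) ligand and receptor superfamilies, taken as every gene whose symbol starts with Tnfsf or Tnfrsf followed by a number and that is measured by a probe set naming that gene alone. They are 29 of the 19938 genes measured in this way, 9 ligands and 20 receptors, each with a single probe set. The RefSeq table used for gene names lists 32 such symbols. Of the other 3, Tnfsf12 and Tnfsf13 share a probe set that names several genes and are not reported, and Tnfsf13os was not analysed here. Well-known relatives with other symbols, such as Tnf, Fas and Cd40, were kept as a separate list.

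The study put RNA on 6 mouse arrays that probe whole transcripts, from the fibroblast lines NIH3T3 and L929 and the macrophage line RAW264.7, with 1 array for unstimulated cells and 1 for cells given IFN-β (interferon-beta, of the type I interferons) for 4 h in each line. The labels used here state no dose of IFN-β. All groups are established cell lines grown in culture, so that a line stands for a single origin, and each of the 6 groups holds 1 array. The values are log2 levels made by the authors with RMA, in which a difference of 1 is a 2-fold change. Precision is limited by how few arrays there are.

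Ligands of this superfamily are mostly trimeric membrane proteins that can be shed, and they bind receptors with cysteine-rich extracellular repeats. Receptors with a death domain can start apoptosis through Fadd and caspase-8, while the others recruit TRAF adaptors and act mainly on NF-kB and MAP kinases. Some receptors are decoys that bind ligand without passing on a signal. In macrophages and fibroblasts the superfamily takes part in inflammation, survival and cell killing.

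Stimulation was visible on every pair of arrays: all 8 measured genes of an interferon response list rose, with Ifit1, Ifit3 and Usp18 at mean log2 changes of 6.33, 6.01 and 5.56 (limma adjusted p = 0.000489 for Ifit1). Marker levels fitted the labels. The 10 macrophage markers had a median log2 level of 10.59 in unstimulated RAW264.7 against 4.13 in NIH3T3 and 4.27 in L929, and the 8 fibroblast markers had medians of 4.90, 11.10 and 9.43 in the same order, with 6 of the 8 above the array's median in L929. The 7 measured lymphocyte markers had medians between 3.62 and 4.19 on the 6 arrays. Among them Cd3g was above the array's median on both L929 arrays, at 5.25 and 5.51. Medians of the 7 epithelial and 4 endothelial markers were at most 5.40 and 4.17. The array of stimulated NIH3T3 had a higher median, 5.49 over all genes against 5.07 to 5.22 on the other 5, and the median log2 change of all genes was 0.17 for NIH3T3, -0.05 for L929 and -0.03 for RAW264.7. From unstimulated to stimulated NIH3T3 the lower quartile of all genes went from 3.79 to 4.10 and the upper quartile from 7.32 to 7.39. A change in NIH3T3 is to be read against that shift, which was larger at low levels.

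The ligand Tnfsf10 and the receptor Tnfrsf14 were higher with IFN-β in all 3 lines, and no other member passed the test of the mean change. A rise within a single line was not tested. The test was a limma fit over all genes with cell line as a block, in which the 3 lines serve as the replicates. With an adjusted p under 0.05, 2 of 29 members rose and 0 fell, where 0.732% of all genes rose and 0% fell. At an unadjusted p under 0.05, 5 members were higher and 0 lower, against 4.20% and 1.27% of all genes. The 5 were Tnfsf10, Tnfrsf14, Tnfsf13b, Tnfrsf1b and Tnfsf18. The median of the mean log2 changes was 0.10 over the members, 0.27 over the 9 ligands and 0.08 over the 20 receptors, beside 0.03 over all genes. Without the cell line in the model neither Tnfsf10 nor Tnfrsf14 passed, with an adjusted p of 0.999964 for both. Under this model 2 of all genes were called.

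Tnfsf10 (probe set 10491091) encodes TRAIL, a ligand that can kill cells through death receptors. Its log2 level without stimulation was 3.24 in RAW264.7, 2.96 in L929 and 3.17 in NIH3T3, below the lower quartile of all genes on each of these arrays. After IFN-β it was 7.65 in RAW264.7, 8.44 in L929 and 4.58 in NIH3T3. Every stimulated array lay above every unstimulated one, while the stimulated NIH3T3 array stayed well short of the other 2. The log2 change was 5.48 for L929, 4.41 for RAW264.7 and 1.41 for NIH3T3, or 44.7-fold, 21.3-fold and 2.67-fold, and folds from such low starting levels are approximate. The mean log2 change was 3.77 ± 0.57 (limma SE, n = 3 lines), 13.6-fold, with a 95% interval of 2.50 to 5.04 and a limma adjusted p of 0.0122. Between lines the change had an SD of 2.11, and the changes of NIH3T3 and L929 both lay outside this interval. The limma SE is moderated over all genes, so the interval does not hold that spread. The call was lost after quantile normalization (adjusted p = 0.0734) and when variances were moderated robustly with a trend (SE 1.12, adjusted p = 0.902), and it held without NIH3T3 (mean change 4.95, adjusted p = 0.000154) and without L929 (2.91, adjusted p = 0.0300). The fits without NIH3T3 and without L929 each rest on 2 lines. Without L929 the changes of these lines were as far apart as 1.41 and 4.41, so that adjusted p does not show that they agree. Without RAW264.7 the mean change was 3.45. That fit gives every gene the same SE of 0.285, so it does not hold the gap between the remaining changes of 1.41 and 5.48.

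**Figure D1:**
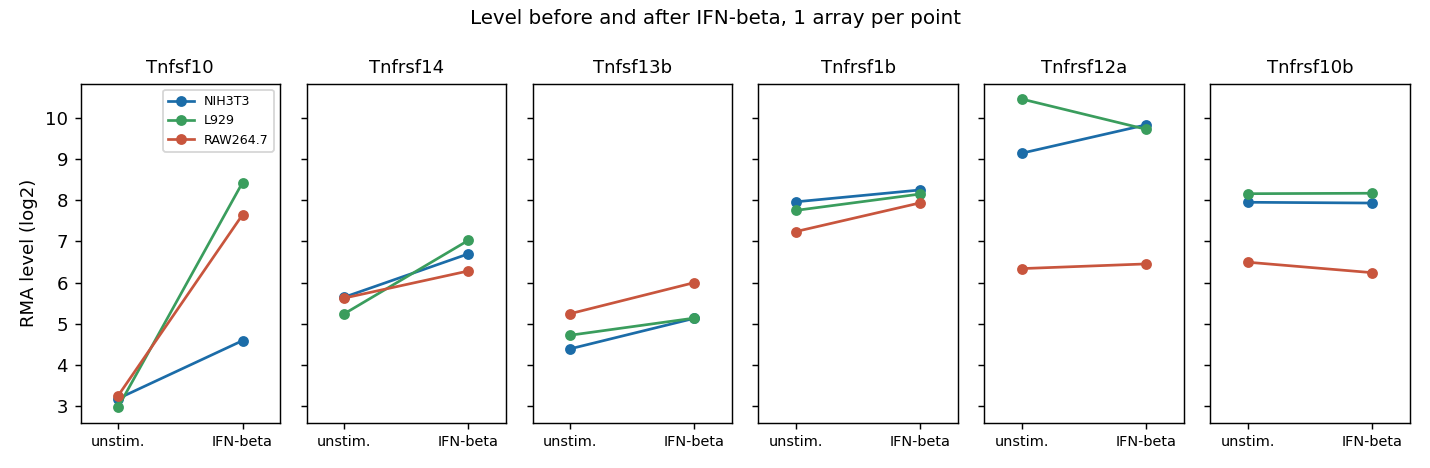
Log2 RMA level of 6 members in unstimulated cells and after IFN-β, with 1 array per point and a line joining the arrays of a cell line. Tnfsf10 starts near 3 in every line and reaches 4.58, 8.44 and 7.65, Tnfrsf14 rises in each line, and Tnfrsf12a and Tnfrsf10b are lower on both RAW264.7 arrays than on all 4 fibroblast arrays.

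Genes with a response most like that of Tnfsf10 were sought over the 3 log2 changes, by Euclidean distance among all genes. The 5 nearest were Ifi209 (distance 1.09), Trim30d (1.17), Gbp2b (1.32), Gbp5 (1.35) and Ifih1 (1.47). All 5 had their smallest change in NIH3T3 and their largest in L929, an order that the choice by these same changes favours. Of the 5, Ifi209 did not pass the test of IFN-β (adjusted p = 0.0559). For Gbp5, a guanylate-binding protein, the log2 changes were 1.44, 4.45 and 3.55 in NIH3T3, L929 and RAW264.7.

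None of the receptors that bind TRAIL passed the test. Tnfrsf10b, the mouse TRAIL receptor that carries a death domain, was at 6.49 and 6.24 in RAW264.7, 8.16 and 8.18 in L929, and 7.96 and 7.94 in NIH3T3, each given as unstimulated and then stimulated. Its mean log2 change was -0.09 with a 95% interval of -0.45 to 0.27 (adjusted p = 0.967). Tnfrsf22 and Tnfrsf23, mouse decoy receptors for TRAIL, were at 7.02 to 7.97 and 7.69 to 8.23 over the 6 arrays, with mean log2 changes of -0.15 (interval -0.53 to 0.23) and -0.08 (-0.49 to 0.33). Tnfrsf11b, the secreted decoy osteoprotegerin, which binds TRAIL and RANKL, was lower in all 3 lines, by 0.14, 0.07 and 0.40, with a mean of -0.20 and an adjusted p of 0.964. The 4 receptors that bind TRAIL thus had intervals of the mean change that reach no further than 0.33 upwards. For the ligand the lower bound was 2.50, which holds for the mean only, as its change in NIH3T3 was 1.41.

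Tnfrsf14 (probe set 10519060), also called HVEM, is the receptor of the ligand LIGHT and of the inhibitory receptor Btla. Its log2 level went from 5.62 to 6.28 in RAW264.7, from 5.23 to 7.03 in L929 and from 5.64 to 6.70 in NIH3T3. Every stimulated array was above every unstimulated one. The mean log2 change was 1.17 ± 0.22 (limma SE, n = 3 lines), 2.25-fold, with a 95% interval of 0.69 to 1.66 and an adjusted p of 0.0442. This call was close to the threshold. It was lost without the NIH3T3 arrays (mean change 1.23, adjusted p = 0.151), without the L929 arrays (0.86, adjusted p = 0.203) and after quantile normalization (1.16, adjusted p = 0.107).

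Its ligand did not pass. Tnfsf14, which encodes LIGHT, had log2 levels of 3.53 and 3.25 in RAW264.7, 4.0 and 3.37 in L929 and 3.08 and 3.96 in NIH3T3, unstimulated and stimulated. It was higher after IFN-β in NIH3T3 and lower in the other lines, with a mean change of -0.01 (interval -0.59 to 0.57). All 6 values were below the median of their array.

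Tnfsf13b encodes BAFF, a survival factor for B cells that myeloid cells secrete. Its log2 level went from 5.24 to 6.0 in RAW264.7, from 4.71 to 5.13 in L929 and from 4.38 to 5.13 in NIH3T3. It was higher in 3 of 3 lines by similar amounts, with an SD between lines of 0.19, although the groups overlap because RAW264.7 started above the stimulated fibroblast lines. The mean log2 change of 0.64 ± 0.17 (interval 0.27 to 1.0) had an adjusted p of 0.249 and did not pass. The receptors for BAFF are found mainly on B cells. Tnfrsf13c (BAFF receptor) had a mean change of -0.21, Tnfrsf13b (TACI) one of 0.04 and Tnfrsf17 (BCMA) one of 0.09, and none of them passed.

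The 2 receptors of TNF itself were well above the median on all arrays. Tnfrsf1b, the TNF receptor without a death domain, went from 7.24 to 7.94 in RAW264.7, from 7.76 to 8.16 in L929 and from 7.97 to 8.26 in NIH3T3. It was higher in each line, with a mean log2 change of 0.46 ± 0.17 and an adjusted p of 0.706. Tnfrsf1a, the TNF receptor with a death domain, was at 8.36 and 9.02 in RAW264.7, 8.81 and 9.0 in L929 and 9.49 and 9.42 in NIH3T3. Its log2 change was 0.67, 0.19 and -0.07 in that order, with a mean of 0.26 (interval -0.15 to 0.67). Neither receptor passed.

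Tnfrsf12a, known as Fn14, is the receptor of TWEAK and is induced by growth factors in fibroblasts. The fibroblast lines had changes of opposite sign, from 10.47 to 9.73 in L929 and from 9.15 to 9.84 in NIH3T3, while RAW264.7 had 6.34 and 6.45. The mean log2 change was 0.02 ± 0.24 (adjusted p = 0.996), and its sign turned with the arrays centred on their medians (-0.074), without NIH3T3 (-0.31) and without RAW264.7 (-0.023). The difference between the changes of the fibroblast lines was not tested.

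Several pairs of the superfamily are costimulatory and act mainly between antigen-presenting cells and T cells. The ligands Tnfsf4 (OX40 ligand), Tnfsf8 (CD30 ligand) and Tnfsf18 (GITR ligand) were below the lower quartile on all 6 arrays, with log2 levels from 2.34 to 3.21 over the 3 genes. Their receptors Tnfrsf4, Tnfrsf8 and Tnfrsf18 were below the median on all 6 arrays, as were the ligand Tnfsf15 (TL1A) and its death domain receptor Tnfrsf25. At such levels a change may be too small to detect on these arrays. For Tnfsf18 the mean log2 change was 0.40 ± 0.18 (adjusted p = 0.911). The stimulated arrays lay above all unstimulated ones for 5 members, namely Tnfsf10, Tnfrsf14, Tnfsf18, Tnfsf8 and Tnfrsf25, where this held for 4.85% of all genes, and lay below them for 0 members, where it held for 0.928%. Of the last 3 of these genes none passed the test, and a higher scale on the stimulated NIH3T3 array moves with their changes there, from 0.43 to 0.64. Its part in the result was not tested.

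Across the superfamily 11 members were higher in all 3 lines and 2 were lower in all 3, against 15.5% and 11.4% of all genes. With the arrays centred on their medians these counts were 8 and 4, against 9.29% and 20.7%. The 8 were Tnfsf10, Tnfsf13b, Tnfsf18, Tnfsf8, Tnfrsf14, Tnfrsf1b, Tnfrsf25 and Tnfrsf21, and the same 8 were higher after quantile normalization. Without centring, 4 of 7 epithelial, 3 of 7 lymphocyte and 1 of 4 endothelial markers were higher in all 3 lines. The count was 1 of 10 for macrophage markers, 0 of 8 for fibroblast markers and 5 of 15 for superfamily genes with other symbols. The members were not tested against these lists. Of the 11 members, Tnfsf4, Tnfsf8 and Tnfsf18 were below the lower quartile on all 6 arrays.

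**Figure D2:**
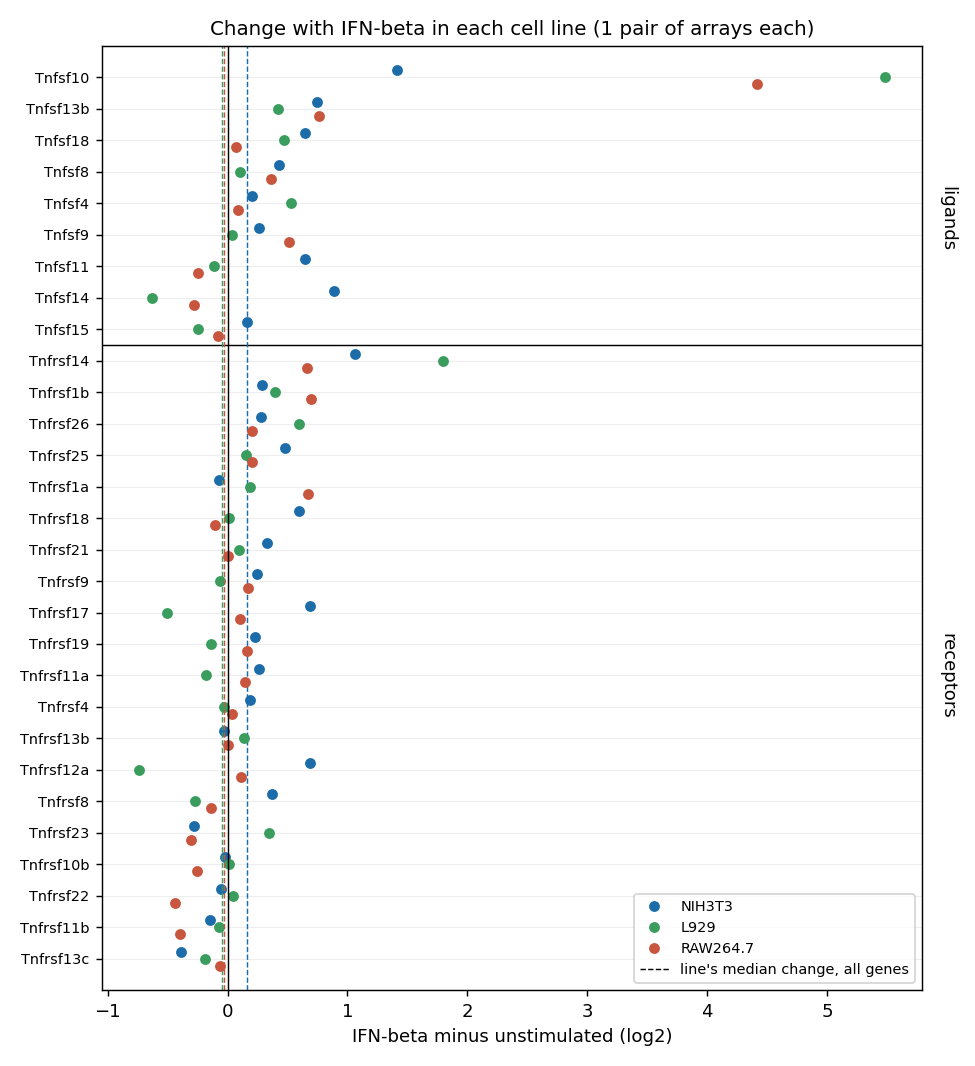
Log2 change with IFN-β in each cell line for the 29 members (x axis), 1 pair of arrays per point, with ligands above the horizontal line, receptors below it and genes ordered by mean change. Dashed lines mark the median change of all genes in each line (0.17, -0.05 and -0.03). Tnfsf10 stands apart in L929 and RAW264.7, and most other members lie within 1 of 0.

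For a single line the change rests on 1 array per condition and has no test, so it was counted at 3-fold, the size used in the series' design text. No member reached it in NIH3T3 (0 of 29, where 0.476% of all genes did). In L929 both Tnfsf10 and Tnfrsf14 did (2 of 29, background 0.893%), the latter at 3.47-fold. In RAW264.7 only Tnfsf10 did (1 of 29, background 0.617%). No member was 3-fold lower in any line, where 0% of all genes were in RAW264.7, 0.0100% in L929 and 0.0401% in NIH3T3. At 2-fold, NIH3T3 had 2 members higher, Tnfsf10 and Tnfrsf14 (background 1.73%), and the counts were 2 in L929 (1.57%) and 1 in RAW264.7 (1.14%). With the arrays centred on their medians the change of Tnfrsf14 in NIH3T3 fell under 2-fold, at 0.78 on the log2 scale.

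Whether RAW264.7 responded differently from the fibroblast lines was tested with an interaction term. Of the 29 members 0 passed in limma, where 0.236% of all genes passed, and 0 had an unadjusted p under 0.05, where 1.59% of all genes did. The fit has 1 residual degree of freedom and gives every gene the same SE of 0.49, so that a gene's own spread plays no part in its interval and only large differences could be called. For Tnfsf10 the change in RAW264.7 exceeded the fibroblast mean by 0.97, with an interval of -0.00 to 1.94 that leaves out the gap between its fibroblast changes of 1.41 and 5.48. For Tnfrsf14 it was below the fibroblast mean, with a difference of -0.76 and an interval of -1.73 to 0.20.

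Promoter sequence is shown for the members that rose and for those that hold the letters of an interferon-stimulated response element (ISRE), the DNA element bound by the STAT and IRF factors that type I interferon activates. RefSeq entries (GRCm38.p6) were found for 23 of the 29 members, with 27 start sites in all. The members without an entry were Tnfrsf10b, Tnfrsf11b, Tnfrsf22, Tnfrsf26, Tnfsf4 and Tnfsf9. The ISRE core was searched as GAAA, any 2 bases and GAAA again, on both strands, in the 250 bases before each start. It was found at 4 of the 27 member starts, those of Tnfrsf14, Tnfsf13b, Tnfrsf1b and Tnfrsf17, beside 2.98% of all 32851 starts in the table. Tnfsf10 has no match to these letters in this window. A shorter IRF core, AANNGAAA, chosen after the sequences and values were seen, overlaps the ISRE core and has 2 matches at Tnfsf10. It occurs at 11 member starts and at 21.3% of all starts. Capitals mark the ISRE core below, and for Tnfsf10 the shorter core; each sequence runs 5′ to 3′ on the strand of the gene and ends at the base before its start.
Tnfsf10, chr3:27316827-27317076, plus strand: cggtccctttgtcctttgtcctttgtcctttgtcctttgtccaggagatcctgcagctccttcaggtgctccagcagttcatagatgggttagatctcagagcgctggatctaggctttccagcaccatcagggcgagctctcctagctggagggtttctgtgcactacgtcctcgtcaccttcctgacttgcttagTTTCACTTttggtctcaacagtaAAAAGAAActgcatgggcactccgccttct
Tnfrsf14, chr4:154928078-154928327, minus strand: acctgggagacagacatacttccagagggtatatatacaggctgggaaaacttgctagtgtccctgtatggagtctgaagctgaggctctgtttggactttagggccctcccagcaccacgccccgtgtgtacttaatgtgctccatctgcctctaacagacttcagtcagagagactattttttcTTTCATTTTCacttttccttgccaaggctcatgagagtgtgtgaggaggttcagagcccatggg
Tnfsf13b, chr8:10006383-10006632, plus strand: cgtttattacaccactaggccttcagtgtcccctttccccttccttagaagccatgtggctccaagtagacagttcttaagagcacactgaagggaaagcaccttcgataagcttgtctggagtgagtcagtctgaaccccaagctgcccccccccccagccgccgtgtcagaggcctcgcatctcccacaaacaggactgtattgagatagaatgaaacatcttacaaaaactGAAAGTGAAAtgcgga
Tnfrsf1b, chr4:145246871-145247120, minus strand: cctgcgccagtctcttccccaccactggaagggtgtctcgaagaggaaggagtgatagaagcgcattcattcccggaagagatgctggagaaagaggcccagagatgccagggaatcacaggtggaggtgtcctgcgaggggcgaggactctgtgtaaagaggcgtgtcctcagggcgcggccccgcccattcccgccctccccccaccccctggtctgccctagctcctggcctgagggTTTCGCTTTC
Tnfrsf17, chr16:11313559-11313808, plus strand: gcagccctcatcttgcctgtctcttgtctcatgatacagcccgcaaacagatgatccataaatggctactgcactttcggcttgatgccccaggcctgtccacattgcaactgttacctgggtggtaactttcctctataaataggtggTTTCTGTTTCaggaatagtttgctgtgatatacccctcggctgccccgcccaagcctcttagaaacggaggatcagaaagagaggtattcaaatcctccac

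The ISRE core begins 64 bases before the start of Tnfrsf14, on the opposite strand, and 16 bases before that of Tnfsf13b, on the same strand. In Tnfrsf1b it takes up the last 10 bases before the start. These 3 genes were higher with IFN-β in 3 of 3 lines, and of them Tnfrsf14 passed the test. Tnfrsf17 holds the core 101 bases before its start and had log2 changes of 0.10, -0.51 and 0.69 for RAW264.7, L929 and NIH3T3, at levels between 3.72 and 4.41. A GAS element, bound by STAT dimers and searched as TTCNNNGAA on both strands, was found at 5 member starts (7.02% of all starts), those of Tnfrsf1a, Tnfrsf1b, Tnfrsf9, Tnfrsf18 and Tnfrsf25. An NF-kB site, searched as GGG, any 2 bases, TT, any base and CC on both strands, was found at 3 (4.11% of all starts), those of Tnfrsf9, Tnfrsf25 and Tnfrsf13b. A match is a run of letters and was not tested for binding.

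More members were called between cell lines than with IFN-β. The same held for all genes, at 25.4% between RAW264.7 and the fibroblast lines and 0.732% with IFN-β. The level of each line, averaged over its 2 arrays, was compared in the same limma fit, first RAW264.7 against the mean of the fibroblast lines. The test covers only the spread between these arrays, and the 2 arrays of a line may come from a single culture. With an adjusted p under 0.05, 4 members were higher in RAW264.7 and 4 were lower. This is 27.6% of the members, close to the 25.4% of all genes that were called (13.0% higher, 12.3% lower).

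Higher in RAW264.7 were Tnfrsf11a, Tnfsf9, Tnfrsf26 and Tnfsf13b. Tnfrsf11a encodes RANK, the receptor through which RANKL turns macrophage precursors into osteoclasts. It was at 7.23 and 7.38 in RAW264.7, unstimulated and stimulated, against 4.68 and 4.50 in L929 and 4.97 and 5.23 in NIH3T3, a log2 difference of 2.46 ± 0.18 (SE, adjusted p = 3.39e-06), and every RAW264.7 array was above every fibroblast array. Tnfsf9, the 4-1BB ligand, was at 6.66 and 7.18 in RAW264.7 and between 4.71 and 5.02 on the fibroblast arrays, a difference of 2.0 ± 0.18 (adjusted p = 1.6e-05). Its receptor Tnfrsf9 lay between 4.80 and 5.44 on all 6 arrays. For Tnfsf13b the difference was 0.78 ± 0.18 (adjusted p = 0.00792), and it was lost without the unstimulated RAW264.7 array (adjusted p = 0.0763) or without the stimulated one (0.224).

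Lower in RAW264.7 were Tnfrsf12a, Tnfrsf10b, Tnfrsf11b and Tnfrsf22. For Tnfrsf12a the difference was -3.40 ± 0.26 (adjusted p = 4.73e-06), 10.6-fold, and for Tnfrsf10b it was -1.69 ± 0.17 (adjusted p = 4.03e-05), 3.23-fold. In both genes the RAW264.7 arrays were below all 4 fibroblast arrays. Tnfrsf22 differed by -0.70 ± 0.18 (adjusted p = 0.0173), with 7.46 and 7.02 in RAW264.7 against 7.90 to 7.97. This call was lost without the unstimulated RAW264.7 array (adjusted p = 0.0565) and without the stimulated one (0.558).

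The mean of the fibroblast lines hides a difference between them for 2 receptors. Tnfrsf11b was at 4.56 and 4.16 in RAW264.7, 4.37 and 4.30 in L929 and 6.36 and 6.22 in NIH3T3, so that NIH3T3 stood above both other lines, and its call against RAW264.7 was lost without the stimulated RAW264.7 array (difference -0.80, adjusted p = 0.119). Tnfrsf26, a receptor related to the TRAIL decoys, was at 7.11 and 7.31 in RAW264.7, 6.31 and 6.90 in L929 and 4.45 and 4.72 in NIH3T3, low in NIH3T3 alone. These were the 2 of 29 members called between L929 and NIH3T3 (6.90%, where 16.1% of all genes were called), with differences of -1.95 ± 0.20 for Tnfrsf11b (adjusted p = 9.2e-05) and 2.02 ± 0.20 for Tnfrsf26 (adjusted p = 8.26e-05). The ligand of RANK and of osteoprotegerin, Tnfsf11 (RANKL), had levels between 6.72 and 7.73 on all 6 arrays and passed in neither comparison.

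**Figure D3:**
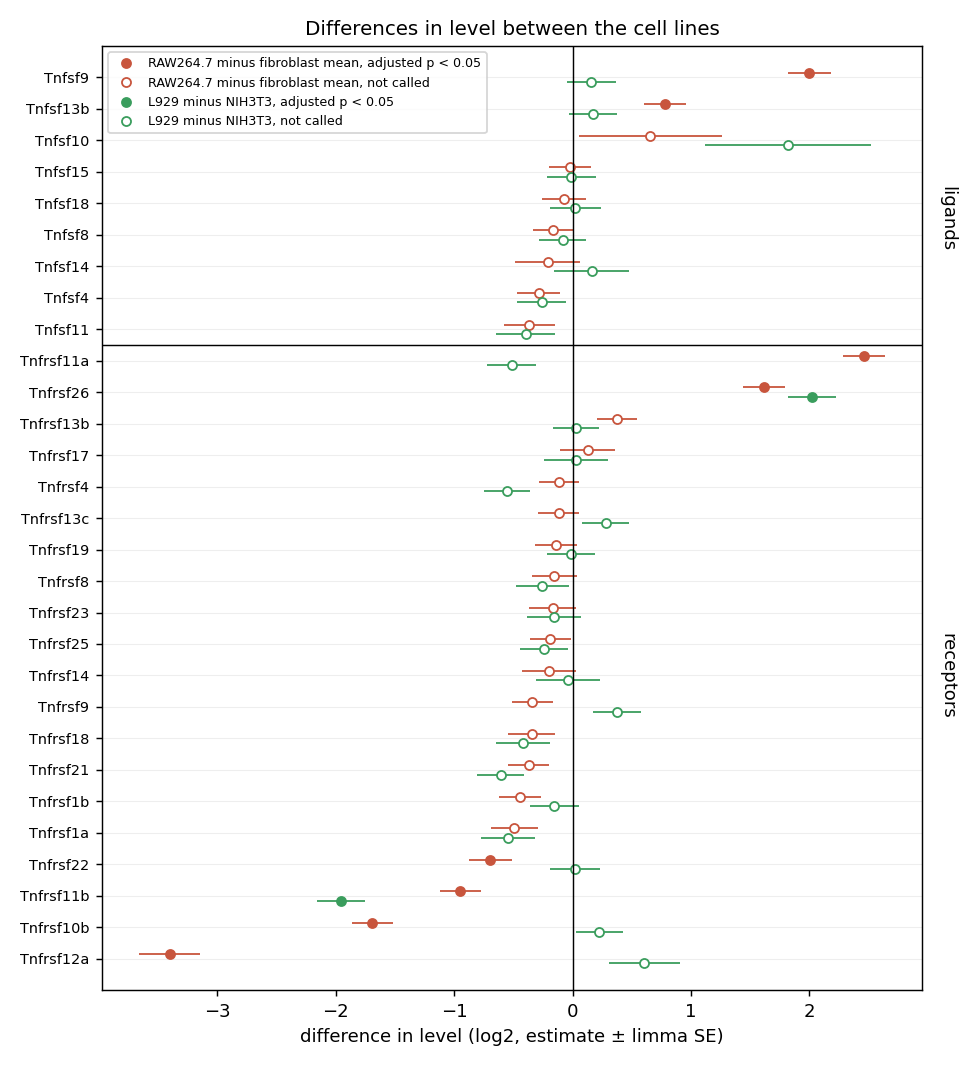
Difference in log2 level between the lines for the 29 members, as limma estimate ± SE, for RAW264.7 minus the mean of the fibroblast lines and for L929 minus NIH3T3. Filled points have an adjusted p under 0.05, as 8 members do in the first comparison and 2, Tnfrsf11b and Tnfrsf26, in the second.

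Tnfrsf26, Tnfrsf22 and Tnfrsf23 are neighbouring genes on chromosome 7 and have similar sequences, so that signal may be shared between their probe sets. Such sharing was not tested. Tnfrsf26 was low in NIH3T3, while Tnfrsf22 and Tnfrsf23, which lie next to each other, were at 7.02 to 7.97 and 7.69 to 8.23 with no low values in that line. Among the 29 members, 6 pairs are adjacent on the chromosome when only protein-coding genes are counted, and the gene next to Tnfrsf1b, Tnfrsf8, changed by 0.37, -0.28 and -0.13 where Tnfrsf1b changed by 0.29, 0.40 and 0.70. The receptors Tnfrsf19 and Tnfrsf21, which have no ligand among the members, were below the median on all arrays, with mean log2 changes of 0.08 and 0.14.

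**Figure D4:**
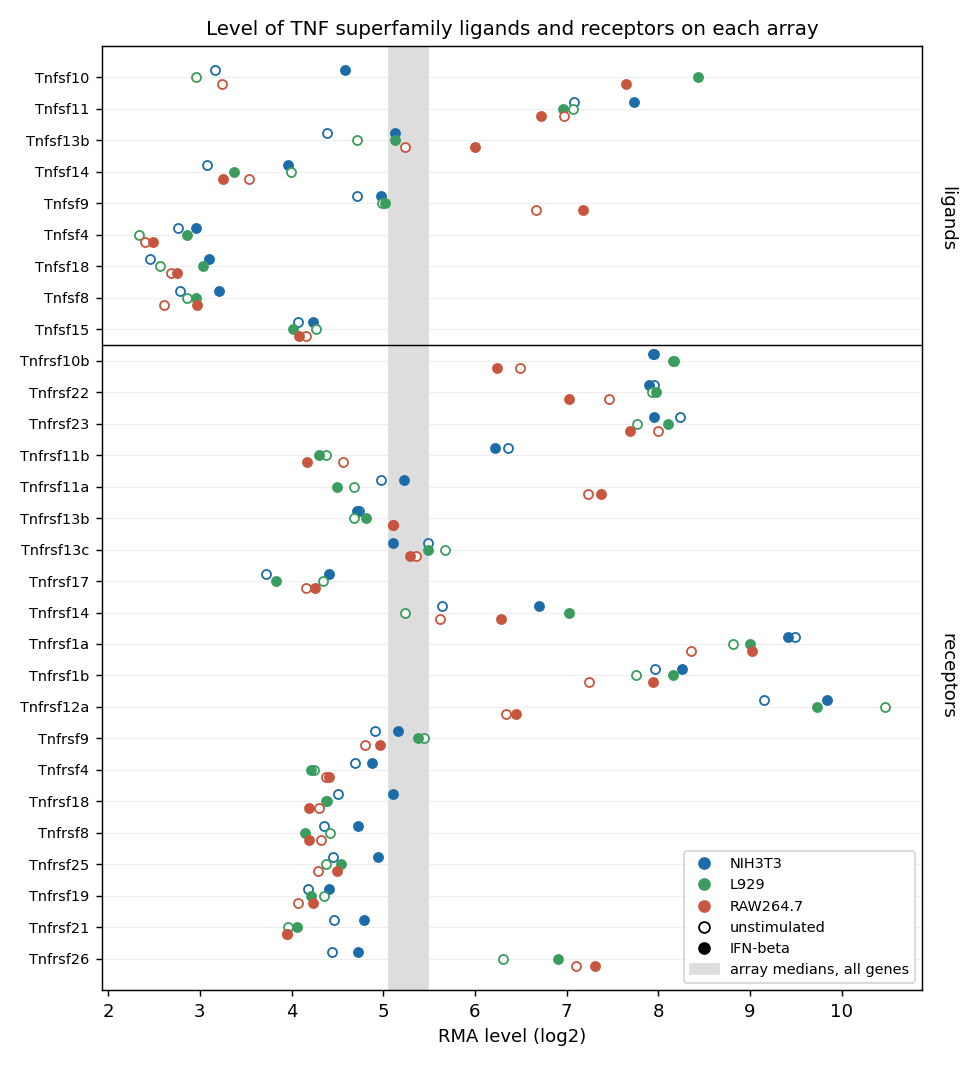
Log2 RMA level of the 29 members on each of the 6 arrays, with open circles for unstimulated cells, filled circles for IFN-β and the range of the arrays' medians over all genes in grey (5.07 to 5.49). Levels of different genes depend on their probes and are not to be compared. Tnfrsf11a and Tnfsf9 are highest in RAW264.7, Tnfrsf12a and Tnfrsf10b are lowest there, and Tnfrsf26 is low in NIH3T3.

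Of 15 superfamily genes with other symbols 0 passed the test of IFN-β in limma, where 0.732% of all genes did. Cd40, a receptor that activates macrophages and B cells, had the largest mean change among them. It was at 6.23 and 8.86 in RAW264.7, 6.77 and 9.03 in L929 and 5.11 and 5.12 in NIH3T3, so that its level was higher on the stimulated arrays of RAW264.7 and L929 while the NIH3T3 arrays differed by 0.0091. The mean log2 change of 1.63 ± 0.40 had an adjusted p of 0.194, and it was 2.44 with an adjusted p of 0.000783 without the NIH3T3 arrays. Without the L929 arrays it was 1.32 (adjusted p = 0.602), and without the RAW264.7 arrays it was 1.13, where the SE of 0.285 is common to all genes and no call is made from it. Tnf was at 9.87 and 10.58 in RAW264.7 and between 4.94 and 5.52 on the fibroblast arrays, with a mean change of 0.55 (adjusted p = 0.411). The death receptor Fas had a mean change of 0.57 (adjusted p = 0.395).

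Where 0.732% of all genes rose and 0% fell, 1 of 28 measured genes of TNF receptor signalling rose and 0 fell. It was Mlkl, the pore-forming protein of necroptosis, which went from 8.49 to 9.86 in RAW264.7, from 9.38 to 11.12 in L929 and from 9.53 to 10.32 in NIH3T3, with a mean log2 change of 1.3 ± 0.20 and an adjusted p of 0.0141. The call was lost without the L929 arrays (mean change 1.08, adjusted p = 0.0805). Rnf31, of the linear ubiquitin chain assembly complex, had a mean change of 0.92 (adjusted p = 0.0649) and was called with the arrays centred on their medians (0.82, adjusted p = 0.0442). Its adjusted p was 0.288 without the NIH3T3 arrays and 0.271 without the L929 arrays. Bid, which links caspase-8 to mitochondria, had a mean change of 0.40 (adjusted p = 0.834). The median of the mean changes was 0.10 over this list.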

How the data were processed

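The labels' protocols give total RNA from 3 cell lines, labelled with a whole-transcript kit and hybridised to 1 array per sample. The deposited log2 values were made by the authors with RMA, per the submitters' processing notes. Neither its version nor its settings stand in the sources used here, and the base of the logarithm was taken from the range of values. Probe sets naming a single gene (21789 of 35557) gave 19938 genes, the probe set with the highest mean being kept where a gene had several. Symbols were checked by Entrez ID, with 91 probe sets unmatched and 0 symbols changed. No filter on low levels was applied.

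limma 3.58.1 (R 4.3.3) fitted treatment and cell line, with eBayes moderation (residual degrees of freedom 2, prior 7.87) and Benjamini-Hochberg adjustment over all genes. Line contrasts came from this fit, and the interaction added 1 term. Pairing comes from the cell line that both arrays share. The treatment fit, the contrast of RAW264.7 with the fibroblast lines and the interaction were also run on simulated data. L929 against NIH3T3 was not simulated. The simulated noise was independent between arrays and a treatment effect was the same in every line, which the real data need not share. Python 3.11.15 with pandas 2.3.3 did the rest.

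Values are given for members called or at least 2-fold changed, those with the 6 highest levels, those called between lines and their partners. Some of these have a range or a mean change in place of a value for every array. From the lists of relatives and of receptor signalling, the genes called and the 3 largest mean changes are named. From the interferon response list only the 3 largest mean changes are named. Members and lists were chosen with earlier results of these data known. Alternatives covered the probe set, a level filter, centring, quantile normalization, variance moderation, the block, each line or array left out and the thresholds.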

Additional observations from a re-analysis of the deposited data

How the results depend on the processing

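The count of members that rose with IFN-β was 2. It was 1 with the filter on genes at or above the median level, which leaves 12 of the 29 members and removes Tnfsf10, 1 with robust moderation and a trend, and 0 after quantile normalization, where 119 of all genes rose in place of 146. With no replicate block, that is without pairing the arrays of a line, it was 0, and 2 of all genes rose. With each line left out in turn it lay between 1 and 2, the 2 being without RAW264.7, where every gene has the same SE of 0.285. With the mean over probe sets, centred arrays, a trend alone or an adjusted p under 0.1 it was 2. The mean change of Tnfrsf12a turned from 0.02 to -0.074 with centred arrays, -0.31 without NIH3T3 and -0.023 without RAW264.7. The cause was not tested.

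Between RAW264.7 and the fibroblast lines, leaving out each array gave between 2 and 5 members lower and between 3 and 5 higher, and quantile normalization added Tnfrsf1a and Tnfrsf1b to the lower ones, 6 in all. Between L929 and NIH3T3 the count higher lay between 1 and 2 and the count lower was 0 with the filter, which removes Tnfrsf11b.

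Within lines, 2 members were higher in NIH3T3 at 2-fold and 0 at 3-fold; in L929 the filter and the 5-fold threshold each left 1, and in RAW264.7 the filter left 0. Of all genes, the interaction called 16 higher and 31 lower, and 4 and 6 after quantile normalization; it called 8 higher with the filter and 9 with robust moderation and a trend. Without either RAW264.7 array the level contrast called 1448 to 1512 genes higher and 1508 to 1569 lower, in place of 2601 and 2457, and without the stimulated L929 array 1172 genes were lower in L929 than in NIH3T3 in place of 1795. Without some single arrays Tnfsf10 was also called between L929 and NIH3T3.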
